A study of Mus musculus with 3 samples.

Results

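Interferon-high neutrophils are neutrophils of mouse mammary tumours in which 4 interferon-stimulated genes, Isg15, Rsad2, Ifit1 and Ifit3, together took at least 1% of a barcode's UMIs (unique molecular identifiers, 1 per captured transcript). There were 1890 of them among 17088 barcodes and 6493 neutrophils: 1762 in the sgCPT1A tumour library and 128 in the sgVC tumour library. The cells were chosen by their own UMI counts: barcodes needed 200 genes or more, with no more than 20% of UMIs mitochondrial. A barcode was called a neutrophil where S100a8, S100a9, G0s2, Hdc, Csf3r, Il1r2, Trem1 and Clec4e summed to at least 1% of its UMIs and C1qa, C1qb and C1qc to under 0.1%. Both thresholds used these same cells, so the levels of those genes, and every comparison of interferon-high with other neutrophils, are descriptions without a test.

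Whole tumours were dissociated and sequenced by 10x Genomics droplet 3′ RNA sequencing, with no sort described. The sgCPT1A tumours grew from 4T1 mammary carcinoma cells with a guide against Cpt1a and are labelled as a CPT1A knockdown; the sgVC tumours grew from 4T1 cells labelled wild type. Both were grown in female mice given as 8 to 10 weeks old, which were housed for 8 days with their tumours, and no further treatment is given for either. The guide was in the tumour line, and the neutrophils came from the host. The title of the series names cGAS-STING signalling and neutrophils beside loss of CPT1A. There was 1 library a group, so no p-value is given and every interval is a 95% interval for counting error alone. The labels list another sgCPT1A sample, and do not say whether the sgCPT1A counts include it. The labels do not say how many tumours or mice each library holds, nor whether the knockdown line is 1 clone.

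Interferons are secreted cytokines that warn cells of viruses or of misplaced nucleic acid. Type I interferons bind the Ifnar1 and Ifnar2 receptor, which through factors that include Stat2 and Irf9 turns on a broad programme of antiviral genes from a promoter element called the interferon-stimulated response element. Interferon gamma uses the Ifngr1 and Ifngr2 receptor, with a partly shared set of targets. Neutrophils are short-lived phagocytes of the blood that enter tumours, and those with a strong interferon programme have been described in several inflamed tissues.

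The promoters of the 4 genes that define these cells, and that of Cxcl10, the chemokine among the 12 genes highest in them relative to other neutrophils, are shown because each holds the core of that response element. The sequences run 5′ to 3′ in the direction of transcription, from 250 bases before to 50 bases after the RefSeq start (GRCm38.p6), and capitals mark matches to GAAA, any 2 bases (NN) and GAAA, on either strand. The windows are chr4:156200769-156201068 on the minus strand for Isg15, chr12:26456403-26456702 on the minus strand for Rsad2, chr19:34640639-34640938 on the plus strand for Ifit1, chr19:34583279-34583578 on the plus strand for Ifit3 and chr5:92348840-92349139 on the minus strand for Cxcl10.
Isg15: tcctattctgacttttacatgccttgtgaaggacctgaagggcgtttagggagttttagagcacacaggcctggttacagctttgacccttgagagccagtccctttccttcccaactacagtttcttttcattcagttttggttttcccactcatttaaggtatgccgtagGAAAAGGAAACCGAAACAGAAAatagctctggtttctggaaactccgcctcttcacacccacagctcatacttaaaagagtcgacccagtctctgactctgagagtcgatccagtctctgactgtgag
Rsad2: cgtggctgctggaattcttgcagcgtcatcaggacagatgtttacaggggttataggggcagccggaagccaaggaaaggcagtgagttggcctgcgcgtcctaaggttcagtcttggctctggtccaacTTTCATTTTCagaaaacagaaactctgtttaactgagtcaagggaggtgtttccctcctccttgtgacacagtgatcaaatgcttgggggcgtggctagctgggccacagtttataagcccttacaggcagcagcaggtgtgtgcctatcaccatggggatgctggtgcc
Ifit1: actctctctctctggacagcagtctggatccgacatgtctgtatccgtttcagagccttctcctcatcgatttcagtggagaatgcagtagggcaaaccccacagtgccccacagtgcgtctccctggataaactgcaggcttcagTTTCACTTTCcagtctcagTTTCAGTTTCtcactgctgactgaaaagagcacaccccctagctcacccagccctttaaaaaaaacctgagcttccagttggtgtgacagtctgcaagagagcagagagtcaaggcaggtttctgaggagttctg
Ifit3: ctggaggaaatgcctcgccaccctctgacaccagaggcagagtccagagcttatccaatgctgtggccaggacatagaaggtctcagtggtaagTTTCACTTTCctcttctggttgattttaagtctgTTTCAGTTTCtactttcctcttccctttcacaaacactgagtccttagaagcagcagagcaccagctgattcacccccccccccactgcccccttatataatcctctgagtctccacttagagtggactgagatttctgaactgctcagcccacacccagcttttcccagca
Cxcl10: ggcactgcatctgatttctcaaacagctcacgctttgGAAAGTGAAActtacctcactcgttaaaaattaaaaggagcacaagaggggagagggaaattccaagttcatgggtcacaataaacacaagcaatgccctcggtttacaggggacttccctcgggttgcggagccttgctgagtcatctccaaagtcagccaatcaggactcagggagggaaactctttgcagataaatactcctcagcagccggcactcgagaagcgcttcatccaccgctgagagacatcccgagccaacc
Isg15 had 3 overlapping matches, Ifit1 and Ifit3 had 2 each, and Rsad2 and Cxcl10 had 1 each. Of the 12 highest genes, the rule's 4 among them, 11 had a promoter in the table and 7 held the motif. Ifit2 and Isg20, also among the 12, had no match in any of their windows. The motif stood in the promoters of 1079 of 27025 genes in the table (3.99%), and, with the rule's 4 genes left out, in 92 of 1605 promoters (5.73%) of genes measured in both libraries below. Without those 4 genes, 81 genes were higher in interferon-high neutrophils of both libraries; a promoter was found for 66 of them, and 28 of the 66 (42.4%) held the motif. Among the genes lower in both libraries, 14 of 329 promoters (4.26%) held it. Of the 60 type I interferon genes on the list used below, 45 had a promoter in the table and 21 held the motif. None of the 8 neutrophil genes of the rule did. These are matches of letters, not measured binding sites, and a gene with several promoters counted once.

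The libraries differed in depth and make-up. They held 35557125 UMIs in sgCPT1A and 155948212 UMIs in sgVC, with medians of 2786 and 10809 UMIs per barcode. Neutrophils were 4714 of 6743 filtered sgCPT1A barcodes and 1779 of 9610 filtered sgVC barcodes, and were closer in depth, with medians of 2668 and 1504 UMIs. Interferon-high neutrophils held 5110571 and 191451 UMIs in all, so their sgVC values rest on far fewer counts. The barcodes shared by both libraries were 18, of which 3 were neutrophils and none interferon-high. Cpt1a stood at 29.5 CPM (a gene's UMIs per 1000000 UMIs; 18.5 to 44.6, 22 UMIs) in 34 sgCPT1A barcodes with tumour keratins and at 16.6 CPM (15.9 to 17.3, 2037 UMIs) in 4311 sgVC ones. A 3′ tag can lie outside the edited stretch, so this level does not check the label.

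Interferon-high cells were a far larger share of neutrophils in the sgCPT1A tumour than in the sgVC tumour. They were 37.4% of sgCPT1A neutrophils (36.0 to 38.8%, exact Clopper-Pearson interval; 1762 of 4714) and 7.20% of sgVC neutrophils (6.04 to 8.50%; 128 of 1779), a 5.19-fold ratio (log2 ratio 2.38). Of all filtered barcodes they were 26.1% in sgCPT1A and 1.33% in sgVC, a ratio that also carries the different neutrophil content of the tumours. With 1 library a group, the spread between tumours was not measured.

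The whole distribution of the 4-gene share lay higher in the sgCPT1A library, not the tail alone. Its median over all neutrophils was 0.719% of UMIs in sgCPT1A and 0.195% in sgVC, with the middle of the distribution (lower to upper quartile) at 0.299 to 1.38% in sgCPT1A and 0.0592 to 0.456% in sgVC. A sum of 0 was found in 4.6% of sgCPT1A and 19.4% of sgVC neutrophils. At least 2% was reached by 12.6% (11.6 to 13.6%) of sgCPT1A and 1.74% (1.19 to 2.46%) of sgVC neutrophils. At least 4% was reached by 1.15% of the sgCPT1A cells (54 of 4714) and by 0 of 1779 sgVC cells, which allows a share of up to 0.169%. The curves of the share of neutrophils above each level run through the 1% line without a step in either library.

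**Figure D1:**
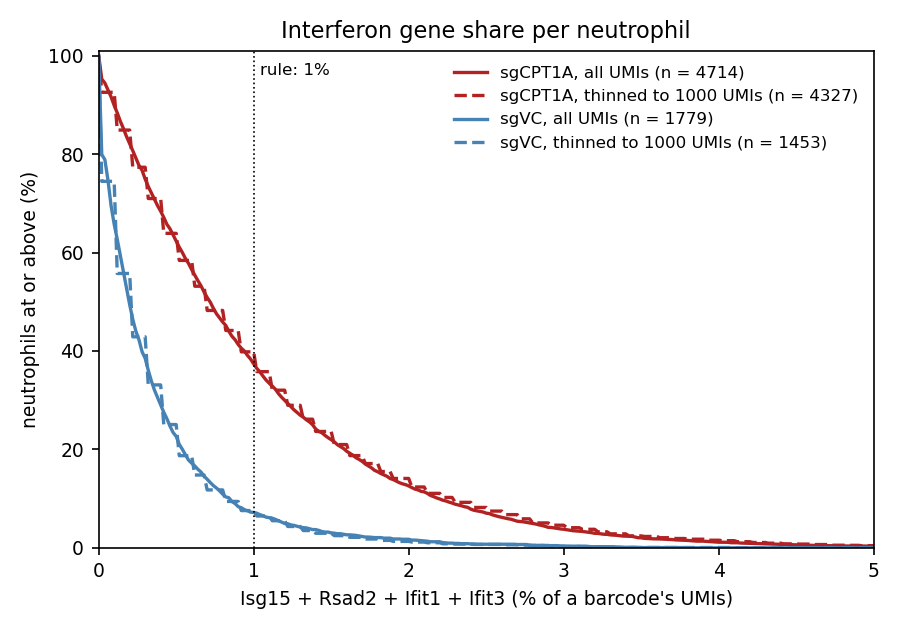
Share of neutrophils (y axis, %) whose Isg15, Rsad2, Ifit1 and Ifit3 UMIs reach at least the value on the x axis (% of the barcode's UMIs), for sgCPT1A (red) and sgVC (blue), from all UMIs (solid) and after thinning each barcode to 1000 UMIs (dashed). At the rule's 1% line the solid curves stand at 37.4% in sgCPT1A and 7.20% in sgVC, and the dashed curves lie close to them.

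Depth alone moves such a share, since a shallow barcode reaches 1% with fewer transcripts. Thinned to 1000 UMIs, with 358 sgCPT1A and 302 sgVC shallower barcodes left out, the shares were 39.8% (38.4 to 41.3%) in sgCPT1A and 7.57% (6.26 to 9.05%) in sgVC. Among neutrophils of 500 to 1000 UMIs they were 32.7% and 8.28%, among those of 1000 to 2000 UMIs 32.6% and 7.64%, among those of 2000 to 4000 UMIs 38.4% and 5.76%, and over 4000 UMIs 42.5% and 1.43%, sgCPT1A first. The sgCPT1A share was 3.95-fold, 4.27-fold, 6.66-fold and 29.8-fold the sgVC share in these ranges, the last on 1 of 70 sgVC cells. Cells just inside and just outside the threshold lay close together: 185 sgCPT1A and 19 sgVC neutrophils lay between 1 and 1.1%, with Isg15 at 6187 and 6256 CPM, and 186 and 21 lay between 0.9 and 1%, with Isg15 at 5732 and 5321 CPM.

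Most of the neutrophils' transcripts of the 4 genes were in interferon-high cells in the sgCPT1A library but not in the sgVC library. Interferon-high cells held 73.0% of the UMIs of the rule's interferon genes and 38.6% of all UMIs of sgCPT1A neutrophils. In sgVC they held 31.5% of those UMIs and 5.64% of all UMIs. The rule chose the cells by these 4 genes, so a part above that of all UMIs is set by the rule. The contrast between the libraries also carries the different shares of neutrophils that were interferon-high, 37.4% and 7.20%. For the 60-gene type I interferon list, which leaves the rule's genes out, the part of interferon-high cells was 57.5% of the neutrophils' UMIs in sgCPT1A and 14.8% in sgVC.

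The 4 defining genes stood at similar levels in interferon-high cells of both tumours. Isg15, a ubiquitin-like protein that is joined to other proteins, stood at 9095 CPM in interferon-high and 2748 CPM in other neutrophils of the sgCPT1A library, and at 8023 and 1489 CPM in those of the sgVC library. Rsad2, also called viperin, an antiviral enzyme, stood at 7149.9 CPM in interferon-high and 1220.3 CPM in other neutrophils of the sgCPT1A library, and at 5808 and 436 CPM in those of the sgVC library. Both groups of interferon-high cells lie above both groups of other neutrophils, a direction that the rule favours.

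Ifit1 and Ifit3 belong to a family of proteins that bind foreign RNA or its partners. Ifit1 stood at 1888 CPM in interferon-high and 288 CPM in other neutrophils of the sgCPT1A library, and at 1781 and 137 CPM in those of the sgVC library. Ifit3 stood at 523 CPM in interferon-high and 75.3 CPM in other neutrophils of the sgCPT1A library, and at 522 and 37.1 CPM in those of the sgVC library. Set library against library, the log2 ratios of sgCPT1A over sgVC in interferon-high cells were 0.18 (0.11 to 0.26) for Isg15, 0.30 (0.21 to 0.39) for Rsad2, 0.08 (−0.07 to 0.24) for Ifit1 and 0.00 (−0.29 to 0.30) for Ifit3. In the other neutrophils, which the rule holds under 1%, they were 0.88, 1.48, 1.07 and 1.02. The 1% limit bounds the sum from below in one subset and from above in the other, so levels of these genes within a subset are partly set by the rule.

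The cells did not all pass the rule in the same way. Of the 4-gene UMIs in interferon-high cells, Isg15 gave 48.8% in sgCPT1A and 49.7% in sgVC, and Rsad2 gave 38.3% and 36.0%. In the other neutrophils Isg15 gave 63.4% and 70.9%, so Rsad2 and the Ifit genes weighed more in the interferon-high cells. Isg15 alone reached 1% in 35.4% of sgCPT1A and 26.6% of sgVC interferon-high cells, and Rsad2 alone in 22.9% and 11.7%. No single gene reached it in 51.0% and 64.8%. After thinning to 1000 UMIs, all 4 genes were seen together in 24.0% of sgCPT1A and 22.3% of sgVC interferon-high cells, against 1.48% and 0.582% of the other neutrophils of the same libraries.

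S100a8 and S100a9, which encode the calprotectin subunits, and Csf3r, the receptor for granulocyte colony-stimulating factor, are 3 of the 8 neutrophil genes of the rule, so their levels describe the rule and do not check the label. Thinned to 1000 UMIs, S100a9 was seen in 95.1% of sgCPT1A and 95.1% of sgVC interferon-high cells, S100a8 in 85.3% and 89.3%, and Csf3r in 40.1% and 45.6%. In fibroblasts of the same libraries, which do not make them and so show free RNA, the shares were 9.68% and 2.79%, 4.23% and 1.52%, and 0.202% and 0.254%. In T cells, nearer in depth, they were 13.02% and 2.86% for S100a9, 6.74% and 1.56% for S100a8, and 0.465% and 0.130% for Csf3r. The median depth before thinning was 2786.5 UMIs in sgCPT1A and 1499 in sgVC interferon-high cells, against 24935 and 15008 in fibroblasts and 5403 and 3097.5 in T cells. Ly6g, the surface antigen used to gate mouse neutrophils, was seen in 1.52% and 1.94% of interferon-high cells and in 1.36% and 2.69% of other neutrophils; it was not part of the rule.

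Of the 8 neutrophil genes of the rule 0 differed by 1.5-fold in either library when interferon-high were set against other neutrophils, where 4.26% of all measured genes were higher and 45.2% lower by that fold in sgCPT1A and 8.91% and 31.9% in sgVC. In sgCPT1A S100a8, S100a9, Csf3r and Il1r2 stood at lower levels in interferon-high cells, and G0s2, Hdc, Trem1 and Clec4e at higher ones, with log2 ratios of 0.11, 0.14, 0.16 and 0.12. S100a8 stood at 11268 CPM in interferon-high and 16842 CPM in other neutrophils of the sgCPT1A library, and at 14740.1 and 17015 CPM in those of the sgVC library. Csf3r stood at 582 CPM in interferon-high and 821 CPM in other neutrophils of the sgCPT1A library, and at 809.6 and 743 CPM in those of the sgVC library. The log2 ratios of interferon-high over other neutrophils were −0.58 in sgCPT1A and −0.21 in sgVC for S100a8, and −0.50 and 0.12 for Csf3r, under 1.5-fold with all barcodes; the median of all measured genes was −0.51 in sgCPT1A and −0.20 in sgVC. Depth-limited, to barcodes of 1000 to 4000 UMIs, they were −0.66 and −0.37 for S100a8 and −0.62 and −0.20 for Csf3r, past 1.5-fold lower in sgCPT1A for both genes.

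Many of the genes higher in interferon-high than in other neutrophils were known interferon targets. A gene was measured where its UMIs would reach 10 on each side at a ratio of 1, and was called where its CPM differed by at least 1.5-fold. In sgCPT1A 360 of 8443 measured genes were called higher (4.26%) and 3820 lower (45.2%), and in sgVC 181 of 2032 were called higher (8.91%) and 648 lower (31.9%). Of 2028 genes measured in both libraries, 85 were higher in both (4.19%) and 416 lower in both (20.5%). Over all measured genes the median log2 ratio was −0.51 in sgCPT1A and −0.20 in sgVC. Relative to that median, 218 genes were higher in both and 218 lower in both. With the rule's 4 genes left out, 40 of 81 genes higher in both were on the type I or interferon gamma lists (49.4%), against 47 of 2024 measured genes (2.32%), and of the 416 lower genes 0 were.

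The other neutrophils held more barcodes of extreme depth and of mixed content, and these moved with the genes called lower. Barcodes over 10000 UMIs were 5 in sgCPT1A and 0 in sgVC among interferon-high cells, against 24 and 29 among other neutrophils, where they held 4.81% and 17.4% of UMIs. Fibroblast markers, 8 genes, summed to 306 and 88.8 CPM in sgCPT1A and sgVC interferon-high cells, against 2147 and 929 CPM in the other neutrophils. With barcodes of 1000 to 4000 UMIs alone, 87 genes were higher in both libraries and 115 lower in both; 75 of the 85 and 81 of the 416 were called again. Within that range 31.4% of 6865 measured genes were lower and 5.74% higher in sgCPT1A (median gene −0.35), and 17.2% of 1653 lower and 8.59% higher in sgVC (median gene −0.13). Depth-limited values below are from that range and are given for some genes and lists. Fibroblast markers summed there to 273 against 288 CPM in sgCPT1A and 100.6 against 120.2 CPM in sgVC.

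**Figure D2:**
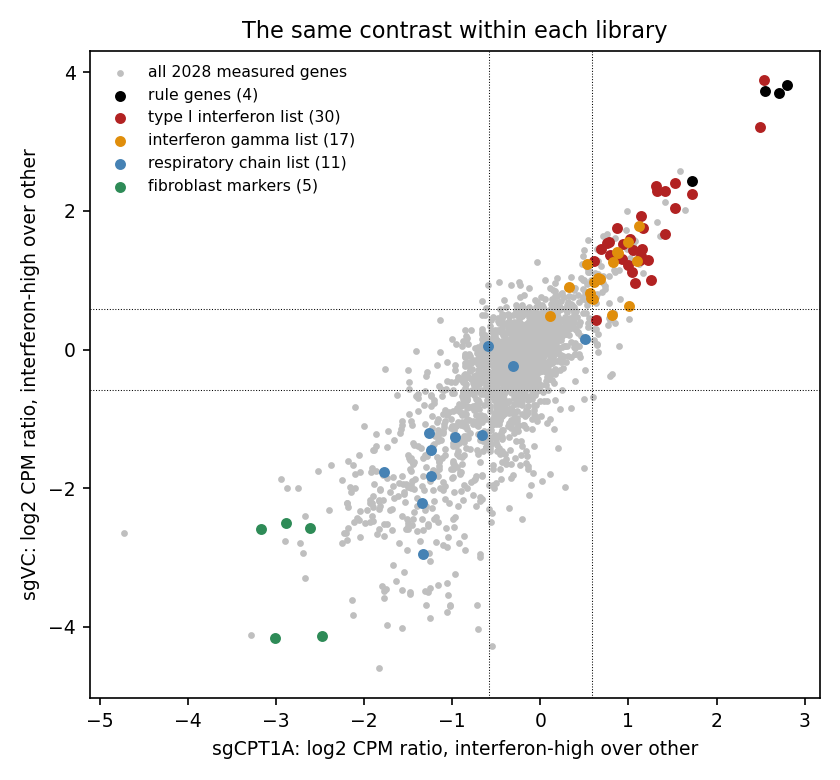
Log2 CPM ratio of interferon-high over other neutrophils in sgCPT1A (x axis) and in sgVC (y axis) for the 2028 genes measured in both; dotted lines mark 1.5-fold, and colours mark the rule's genes and 4 lists. Of the 30 type I interferon genes shown, 29 lie past 1.5-fold in the upper right, while the 5 fibroblast markers and 8 of the 11 respiratory chain genes shown lie past it in the lower left.

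The type I list, without the rule's genes, covers antiviral effectors, sensors and regulators. Of its 60 genes 53 were measured in sgCPT1A, where 48 were called higher and 2 lower, with a median log2 ratio of 1.16. In sgVC 30 were measured, 29 higher and 0 lower, with a median of 1.53. Over all measured genes 4.26% were higher and 45.2% lower in sgCPT1A, and 8.91% and 31.9% in sgVC. Relative to the median of all measured genes the list's medians were 1.67 and 1.73. The list summed to 25039 against 11633 CPM in sgCPT1A and 24455 against 8419 CPM in sgVC.

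Among RNA-binding and antiviral effectors, Ifit2 stood at 679 CPM in interferon-high and 117 CPM in other neutrophils of the sgCPT1A library, and at 799 and 54.0 CPM in those of the sgVC library. Its log2 ratio was 2.54 (2.44 to 2.65) in sgCPT1A and 3.89 (3.56 to 4.21) in sgVC. Isg20, an exonuclease that degrades single-stranded RNA, stood at 1164 against 354 CPM in sgCPT1A and 1306 against 276 CPM in sgVC, interferon-high against other neutrophils. Oasl1, a member of the oligoadenylate synthetase-like family, stood at 782 against 271 CPM in sgCPT1A and 804 against 153 CPM in sgVC. In each of these genes both interferon-high groups were above both groups of other neutrophils.

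Ifitm3, a membrane protein that hinders viral entry, stood at 3929 against 1863 CPM in sgCPT1A and 4403 against 2271 CPM in sgVC, and Slfn4, a schlafen gene of myeloid cells, at 3806 against 2073 CPM in sgCPT1A and 2758 against 821 CPM in sgVC. Slfn4 was also higher in sgCPT1A than in sgVC within the other neutrophils, with a log2 ratio of 1.34. Rnf213, a very large ubiquitin ligase, stood at 564 against 212 CPM in sgCPT1A and 439 against 90.8 CPM in sgVC. Mx2 passed the count minimum in sgCPT1A only, at 93.9 against 14.9 CPM, a log2 ratio of 2.66, and rested on 32 UMIs in sgVC interferon-high cells, at 167 against 12.2 CPM. Mx1, on the same list, stood at 0.587 CPM in sgCPT1A interferon-high cells and at 0 UMIs in sgVC ones, against 59.3 and 14.0 CPM in macrophages; it was chosen after its values were seen.

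The cytosolic RNA sensors were higher as well. Ifih1, which encodes MDA5, stood at 358 against 135 CPM in sgCPT1A and 319 against 65.2 CPM in sgVC, with log2 ratios of 1.41 and 2.29. Ddx58, which encodes RIG-I, stood at 219 against 88.3 CPM in sgCPT1A and 319 against 62.1 CPM in sgVC, with log2 ratios of 1.31 and 2.36. Usp18, a protease that removes Isg15 from its targets and dampens signalling at the type I receptor, stood at 391 against 69.2 CPM in sgCPT1A and 528 against 57.1 CPM in sgVC, with log2 ratios of 2.5 (2.36 to 2.63) and 3.21 (2.84 to 3.57). Zbp1, a sensor of left-handed nucleic acid that can start necroptosis, stood at 451 against 219 CPM in sgCPT1A and 642 against 297 CPM in sgVC.

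**Figure D3:**
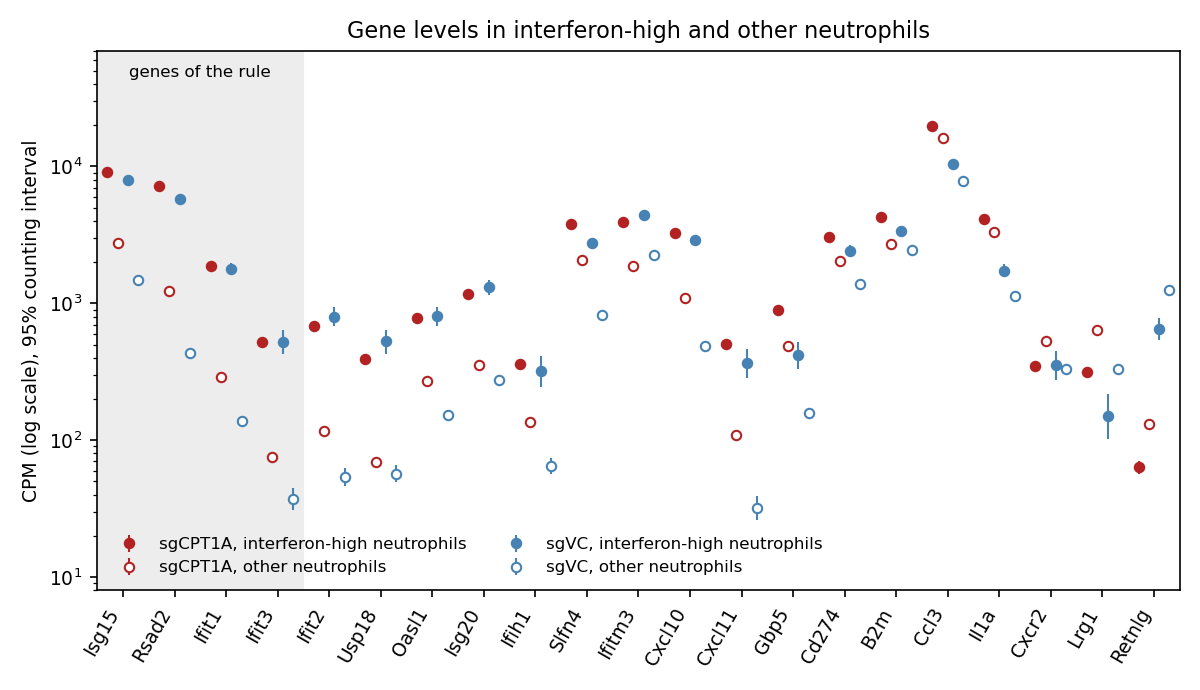
CPM (log axis) of 21 genes in interferon-high (filled) and other (open) neutrophils of sgCPT1A (red) and sgVC (blue), with 95% counting intervals; grey marks the genes of the rule. From Isg15 to Cxcl11 both filled points lie above both open points, while Lrg1 and Retnlg are lower in the filled points of each library.

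Targets usually assigned to interferon gamma were higher by less. Of 26 listed genes, 17 of 24 measured in sgCPT1A were called higher and 1 lower (median 0.71), beside 4.26% and 45.2% of all measured genes. In sgVC 15 of 17 were higher and none lower (median 1.02), beside 8.91% and 31.9%. Ifi47, an immunity-related GTPase, stood at 913 against 419 CPM in sgCPT1A and 956 against 278 CPM in sgVC. Gbp3, a guanylate-binding protein, stood at 392 against 197 CPM in sgCPT1A and 277 against 94.3 CPM in sgVC. Irf1, a transcription factor of the gamma response, stood at 1886 against 1741 CPM in sgCPT1A and 1682 against 1201 CPM in sgVC, under 1.5-fold in both. Several of these genes answer to both interferon types, so the list does not tell the types apart.

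The ligands of CXCR3, the receptor by which T and NK cells follow interferon-induced chemokines, were higher in interferon-high cells. Cxcl10 stood at 3261 CPM in interferon-high and 1085 CPM in other neutrophils of the sgCPT1A library, and at 2925 and 492 CPM in those of the sgVC library, with log2 ratios of 1.59 (1.55 to 1.62) and 2.57 (2.43 to 2.71). Cxcl11 stood at 506 against 109 CPM in sgCPT1A and 366 against 32.1 CPM in sgVC, with a log2 ratio of 2.22 in sgCPT1A; in sgVC, with 70 UMIs in interferon-high cells, too few were expected at a ratio of 1 for it to count as measured. Cxcl9 stood at 156 against 91.6 CPM in sgCPT1A and 31.3 against 22.2 CPM in sgVC, the sgVC interferon-high value resting on 6 UMIs. All 3 ligands passed 1.5-fold in sgCPT1A, and the 1 measured in sgVC did too.

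Of the signalling genes, Stat2 was higher in both libraries, and the type I receptor chains Ifnar1 and Ifnar2 stayed under 1.5-fold. Stat2 stood at 242 against 122 CPM in sgCPT1A and 266 against 66.5 CPM in sgVC, and Irf9, its partner, at 150.3 against 107 CPM in sgCPT1A and 245 against 96.8 CPM in sgVC, with log2 ratios of 0.99 and 2.0 for Stat2 and 0.48 and 1.34 for Irf9. Irf9 was under 1.5-fold in sgCPT1A, where scaling to the median gene brought it to 0.99; the difference between the libraries was not tested. Ifnar1 stood at 70.6 against 80.6 CPM in sgCPT1A and 57.5 against 64.9 CPM in sgVC and Ifnar2 at 316 against 296 CPM in sgCPT1A and 214 against 178 CPM in sgVC. Ifngr1, a chain of the gamma receptor, was lower in both, at 28.8 against 53.3 CPM in sgCPT1A and 52.2 against 108 CPM in sgVC, with depth-limited log2 ratios of −0.85 and −0.98. Ifnlr1, a chain of the interferon lambda receptor, was higher in sgCPT1A, at 6.65 against 3.93 CPM on 34 and 32 UMIs, a log2 ratio of 0.76, and had 1 UMI in sgVC interferon-high cells, too few to count as measured. In all, 3 of 12 measured signalling genes were higher and 1 lower in sgCPT1A, beside 4.26% and 45.2% of all measured genes. In sgVC 3 of 8 were higher and 0 lower, beside 8.91% and 31.9%. Irf8, a factor of dendritic and B cells, was the lower one, at 2.15 against 13.8 CPM in sgCPT1A on 11 and 112 UMIs, beside dendritic markers at 3.33 against 13.9 CPM and B cell markers at 1.17 against 12.2 CPM; their part in it was not tested. Irf5, a factor of Toll-like receptor signalling, stood at 83.7 against 52.1 CPM in sgCPT1A and 78.3 against 41.8 CPM in sgVC; it was called higher in sgCPT1A, with a log2 ratio of 0.68, and in sgVC, on 15 UMIs in interferon-high cells, it did not count as measured.

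Interferon transcripts themselves were scarce in these cells. Ifnb1, the gene of interferon beta, had 14 UMIs (2.74 CPM) in sgCPT1A interferon-high cells against 14 UMIs (1.72 CPM) in sgCPT1A other neutrophils, a log2 ratio of 0.67 (−0.51 to 1.85) that was called higher although its counting interval includes 0. In the depth-limited cells it fell under the count minimum. In sgVC it had 0 UMIs in interferon-high cells against 18 UMIs (5.62 CPM) in other neutrophils. A count of 0 allows up to 15.7 CPM in the sgVC interferon-high cells. Ifna2 had 2 UMIs in sgCPT1A interferon-high cells, and Ifna4, Ifna5, Ifne, Ifnl2 and Ifnl3 had 0 in interferon-high cells of both libraries, which allows up to 0.587 CPM in sgCPT1A. Ifng, the gene of interferon gamma, stood at 2.35 against 8.97 CPM in sgCPT1A and at 0 UMIs against 18.4 CPM in sgVC, beside T cell markers that summed to 21.3 against 96.2 CPM in sgCPT1A and 5.22 against 137 CPM in sgVC. The part of T cell RNA in the Ifng values was not tested. Of the list of ligands and receptors 2 of 8 measured genes, Ifnb1 and Ifnlr1, were called higher and 2, Ifng and Ifngr1, lower in sgCPT1A. In sgVC 0 of 5 were higher and 1, Ifngr1, was lower. All measured genes were higher in 4.26% and lower in 45.2% of cases in sgCPT1A, and in 8.91% and 31.9% in sgVC.

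In the cGAS-STING pathway, which senses cytosolic DNA and which the series names, the sensor was low but higher in interferon-high cells of sgCPT1A. Cgas stood at 25 CPM (20.9 to 29.8; 128 UMIs) against 9.46 CPM (7.47 to 11.8) in sgCPT1A, a log2 ratio of 1.40, and at 20.9 against 9.99 CPM in sgVC, on 4 UMIs and not measured. Sting1, the adaptor, stood at 2.35 against 3.20 CPM in sgCPT1A and 15.7 against 9.68 CPM in sgVC, on 12 and 3 UMIs in interferon-high cells. Tbk1, the kinase that acts after it, stood at 185 against 149.6 CPM in sgCPT1A and 151 against 104 CPM in sgVC, and Samhd1, which breaks down nucleotides, at 823 against 620.2 CPM in sgCPT1A and 809.6 against 550.3 CPM in sgVC, both under 1.5-fold. Tlr7, the endosomal RNA receptor, stood at 9.20 against 4.43 CPM in sgCPT1A. In all 2 of 9 measured genes of this list were higher and 1 lower in sgCPT1A, beside 4.26% and 45.2% of all measured genes. In sgVC 0 of 4 passed, beside 8.91% higher and 31.9% lower. Depth-limited, 2 of 8 were higher and 1 lower in sgCPT1A, beside 5.74% and 31.4%. In sgVC 1 of 4 was higher in that range, beside 8.59%. Trex1 was listed at 0 in every group.

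Of 16 genes of antigen presentation by MHC class I, 9 were called higher in sgCPT1A (median 0.61), with none lower. In sgVC 5 of 14 were higher (median 0.47) and none lower. Of 14 measured in both, 2, Tapbp and Nlrc5, were higher in both, beside 4.19% of all genes measured in both. Called higher over all measured genes were 4.26% in sgCPT1A and 8.91% in sgVC, and lower 45.2% and 31.9%. B2m, the shared light chain, stood at 4271 against 2708 CPM in sgCPT1A and 3348 against 2442 CPM in sgVC. Nlrc5, the activator of these genes, stood at 149 against 92.3 CPM in sgCPT1A and 151 against 85.2 CPM in sgVC, past 1.5-fold in both. H2-D1, a classical heavy chain, stood at 4153 against 3194 CPM in sgCPT1A and 4623 against 3518 CPM in sgVC, under 1.5-fold in both.

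Among checkpoint and suppressive genes, Lgals9 was higher in both libraries. Cd274, which encodes PD-L1, stood at 3027 CPM in interferon-high and 2049 CPM in other neutrophils of the sgCPT1A library, and at 2429 and 1375 CPM in those of the sgVC library, with log2 ratios of 0.56 (0.53 to 0.59) and 0.82 (0.68 to 0.96); 1.5-fold was passed in sgVC but not in sgCPT1A, and the difference between the libraries was not tested. Depth-limited, the ratios were 0.55 and 0.55, under 1.5-fold in both, and the sgVC ratio was under 1.5-fold in 3 of 11 alternatives, at 0.40 in the lowest. Lgals9, which encodes galectin-9 and is also on the type I list, stood at 127 against 74.0 CPM in sgCPT1A and 209 against 71.2 CPM in sgVC, past 1.5-fold in both. Nos2, the inducible nitric oxide synthase, stood at 204 against 142 CPM in sgCPT1A and 256 against 108 CPM in sgVC. Arg2, an arginase, stood at 1046 against 1139.95 CPM in sgCPT1A and 1489 against 1228 CPM in sgVC, under 1.5-fold in both. Of the measured list 2 of 11 were higher and 1 lower in sgCPT1A, beside 4.26% and 45.2% of all measured genes. In sgVC 3 of 6 were higher and 0 lower, beside 8.91% and 31.9%. Depth-limited, 2 of 6 were higher in sgVC, beside 8.59%.

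Of the death and survival genes, 4 of 18 were higher in sgCPT1A and 4 of 13 in sgVC, with 1 lower in each. Over all measured genes 4.26% were higher and 45.2% lower in sgCPT1A, and 8.91% and 31.9% in sgVC. Relative to the median gene the list's medians were 0.73 and 0.55. Casp8, the initiator caspase of the extrinsic pathway, stood at 139 against 63.9 CPM in sgCPT1A and 183 against 77.7 CPM in sgVC, past 1.5-fold in both. Mcl1, which keeps neutrophils alive, stood at 3543 against 3541 CPM in sgCPT1A and 4001 against 3497 CPM in sgVC, under 1.5-fold in both.

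Of 18 inflammatory genes driven by NF-kB none passed 1.5-fold in sgCPT1A (median 0.18), and in sgVC 2 were higher and 2 lower (median 0.17). The shares of all measured genes were 4.26% higher and 45.2% lower in sgCPT1A, and 8.91% and 31.9% in sgVC. Relative to the median of all measured genes the list's medians were 0.69 in sgCPT1A and 0.36 in sgVC. Depth-limited, 0 were higher and 0 lower in sgCPT1A (median 0.15) and 0 were higher and 2 lower in sgVC (median −0.01). In that range 5.74% of all genes were higher and 31.4% lower in sgCPT1A, and 8.59% and 17.2% in sgVC. The list summed to 43337 CPM in sgCPT1A neutrophils with a 4-gene share under 0.1% and 65199.8 CPM in those of at least 2%, and to 27629 and 46918 CPM in those of sgVC. Il1b, the gene of interleukin-1 beta, stood at 20473 against 18037 CPM in sgCPT1A and 21279.6 against 16208 CPM in sgVC, and Nfkbia, the inhibitor that NF-kB induces, at 19662 against 16168 CPM in sgCPT1A and 13356 against 10814 CPM in sgVC. The chemokines Cxcl2, Ccl3 and Ccl4 draw neutrophils and other leukocytes. Cxcl2 stood at 88500.5 against 78348 CPM in sgCPT1A and 57346 against 47604 CPM in sgVC, Ccl3 at 19654 against 16171 CPM in sgCPT1A and 10389 against 7781 CPM in sgVC and Ccl4 at 17965 against 13062 CPM in sgCPT1A and 12881 against 6293 CPM in sgVC; of these Ccl4 passed 1.5-fold, in sgVC. The 7 genes of the phagocyte oxidase, which makes the respiratory burst, all stayed under 1.5-fold in both libraries.

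Lrg1, Retnlg and Mmp8, genes of neutrophil granules or of blood neutrophils, stood at lower CPM in interferon-high cells. Lrg1, a granule glycoprotein, stood at 317 CPM in interferon-high and 637 CPM in other neutrophils of the sgCPT1A library, and at 151 and 332 CPM in those of the sgVC library, with log2 ratios of −1.01 (−1.09 to −0.93) and −1.13 (−1.72 to −0.60), and −1.23 and −1.75 when depth-limited. Retnlg, a resistin-like protein of blood neutrophils, stood at 63.4 CPM in interferon-high and 132 CPM in other neutrophils of the sgCPT1A library, and at 653 and 1254 CPM in those of the sgVC library, with log2 ratios of −1.06 and −0.94, and −1.42 and −0.69 when depth-limited. Mmp8, the collagenase of specific granules, stood at 11.0 against 31.2 CPM in sgCPT1A and 20.9 against 114 CPM in sgVC, on 4 UMIs in sgVC interferon-high cells. The sgVC tumour had more Retnlg than the sgCPT1A tumour in both subsets. Thinned as above, Retnlg was seen in 2.98% of interferon-high and 6.49% of other neutrophils of the sgCPT1A library. In sgVC it was seen in 20.4% (13.1 to 29.5%; 21 of 103) and 20.2% (18.1 to 22.4%; 277 of 1374). The lower Retnlg CPM in sgVC thus did not come with a smaller share of cells with Retnlg.

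In the list of immature and granule genes 9 of 13 measured were lower in sgCPT1A and 6 of 7 in sgVC, with none higher and medians of −1.0 and −1.26. Of all measured genes 45.2% were lower in sgCPT1A and 31.9% in sgVC. Depth-limited, 5 of 11 and 5 of 6 were lower, with medians of −0.40 and −0.75, beside the 31.4% and 17.2% of all genes that were lower in that range. Lcn2, lipocalin-2 of specific granules, was not among them, at 6969.7 against 5675 CPM in sgCPT1A and 1609 against 1828 CPM in sgVC. Cxcr2, the receptor that brings neutrophils out of the blood, stood at 350.3 against 530.03 CPM in sgCPT1A and 355 against 329 CPM in sgVC, lower past 1.5-fold in sgCPT1A alone; the difference between the libraries was not tested. On the recruitment list 7 of 14 genes were lower in sgCPT1A and 2 of 11 in sgVC, with none higher; its medians of −0.52 and −0.08 are −0.01 and 0.12 relative to the median gene, close to that of genes at large, and depth-limited 7 of 14 and 3 of 11 were lower.

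The 12 genes lowest in interferon-high cells included many of other cell types. They were Ngp, Sparc, Col3a1, Fn1, Col1a2, H2-Ea, Crip1, Col1a1, Dcn, H2-Aa, S100a10 and Mt1, among them collagens and matrix genes of fibroblasts and MHC class II genes of antigen-presenting cells. Col1a1 stood at 79.8 against 591 CPM in sgCPT1A and 31.3 against 178 CPM in sgVC, with a depth-limited log2 ratio of −0.09 in sgCPT1A and too few UMIs in sgVC. Ngp, a granule gene of neutrophil precursors, stood at 3.72 against 98.6 CPM in sgCPT1A and 15.7 against 97.7 CPM in sgVC, with a depth-limited log2 ratio of −0.40 in sgCPT1A and too few UMIs in sgVC. In the depth-limited comparison 9 of the 12 were under the count minimum in at least 1 library and the other 3 did not pass 1.5-fold in both, while all 12 of the highest genes did. Of the respiratory chain genes 14 of 16 in sgCPT1A and 8 of 11 in sgVC were lower, and 7 of 15 and 1 of 7 when depth-limited. Over all measured genes 45.2% and 31.9% were lower, and 31.4% and 17.2% when depth-limited, so the depth-limited sgVC count is no larger a share than that of genes at large.

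Most marker lists of other cell types stood lower or close in interferon-high cells over all barcodes, while in the depth-limited range some stood higher. In sgCPT1A the 8 macrophage markers summed to 209 against 243 CPM and the 8 monocyte markers to 211 against 264 CPM. Of the 7 monocyte markers measured there, Ly6c2 was called higher, with a log2 ratio of 0.85, and Ccr2, Fn1, Vcan and Chil3 lower. Depth-limited, 1 of 3 was higher and 0 lower. In sgVC the macrophage markers summed to 172 against 260.3 CPM and the monocyte markers to 319 against 546 CPM. Adgre1, Trem2, Ccr2, F13a1, Ms4a4c and Chil3 were at 0 in sgVC interferon-high cells. Tumour markers summed to 15.7 against 23.2 CPM in sgCPT1A and 125 against 679 CPM in sgVC, and endothelial markers to 33.7 against 42.3 and 41.8 against 36.5 CPM. Depth-limited, the monocyte markers stood at 197 against 181 CPM in sgCPT1A and 361 against 286 CPM in sgVC, and the macrophage markers at 184 against 225 and 184 against 219.7 CPM. The tumour markers stood there at 14.3 against 25.2 CPM in sgCPT1A and 136 against 112 CPM in sgVC, the dendritic markers at 3.78 against 1.84 CPM in sgCPT1A, and the basophil and mast cell markers at 59.2 against 13.5 CPM in sgVC. The part of these cells' RNA in the depth-limited ratios was not tested. Dendritic and NK markers were at 0 in sgVC interferon-high cells, against 33.7 and 24.0 CPM in the other neutrophils, B cell markers rested on 1 UMI there and basophil and mast cell markers on 10, and in sgCPT1A interferon-high cells NK markers stood at 2.54 against 9.46 CPM and basophil and mast cell markers at 0.978 against 2.09 CPM. The plasmacytoid dendritic list was higher, at 174 against 74.9 CPM and 115 against 58.7 CPM, which was Bst2, also an interferon-stimulated gene, at 174 and 115 CPM in interferon-high cells. Siglech, the defining marker of that cell type, was at 0 in both the interferon-high and the other neutrophils of sgVC. A count of 0 allows up to 15.7 CPM in the sgVC interferon-high cells. In sgCPT1A interferon-high cells Siglech, Cox6a2 and Klk1 were counted, while Ccr9 and Cd300c were at 0. The count of mixed barcodes left out the monocyte and plasmacytoid dendritic lists. Markers of the other cell types together reached 1% of UMIs in 2 of 1762 sgCPT1A and 0 of 128 sgVC interferon-high cells. In the other neutrophils they did so in 14 of 2952 and 7 of 1651. The monocyte list alone reached 1% in 1 sgCPT1A interferon-high cell and in 0 sgVC ones, and in 0 other neutrophils of both libraries.

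Sorting neutrophils by their 4-gene share showed graded levels in both tumours. In 5 bins from under 0.1% to at least 2%, the summed type I list stood at 5789, 8702, 14178, 21884 and 31527 CPM in sgCPT1A and at 5161, 8928, 13444, 22898 and 29836 CPM in sgVC. At a given 4-gene share the list's sum thus stood at close levels in both tumours. Single genes differed more: between 1 and 2%, Slfn4 stood at 3466 CPM in sgCPT1A and 2478 CPM in sgVC. In that bin Ifit2, at 448 and 741 CPM, and Usp18, at 281 and 458 CPM, went the other way. The bins held 476, 706, 1770, 1169 and 593 sgCPT1A neutrophils and 609, 485, 557, 97 and 31 sgVC neutrophils. Cxcl10 stood at 328, 1417 and 5396 CPM in the lowest, middle and highest bins of sgCPT1A and at 272, 848 and 8006 CPM in those of sgVC. S100a8 ran the other way in sgCPT1A, at 22047, 15312 and 9369.9 CPM, as did the sum of Cxcr2, Retnlg and Lrg1, at 1883, 1071 and 579.5 CPM in sgCPT1A and 2159.7, 1464 and 908 CPM in sgVC.

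**Figure D4:**
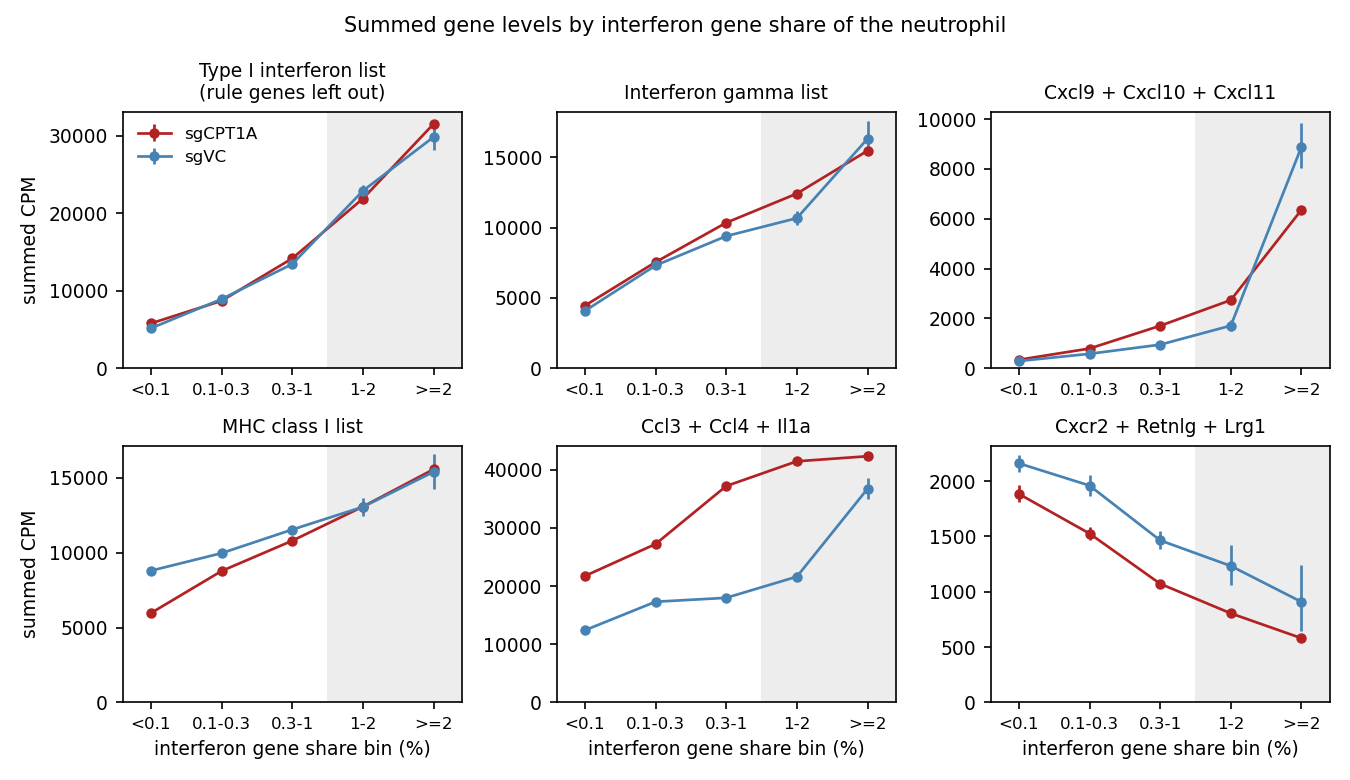
Summed CPM (y axes, from 0) of 6 gene sets in neutrophils binned by their 4-gene interferon share (x axis, % of UMIs), for sgCPT1A (red) and sgVC (blue), with 95% counting intervals; grey marks the interferon-high bins. The type I curves of the 2 libraries lie close together, whereas the sum of Ccl3, Ccl4 and Il1a lies higher in sgCPT1A in every bin and that of Cxcr2, Retnlg and Lrg1 lower, as is Retnlg alone; Cxcr2 stands at 590.3 CPM in sgCPT1A and 234 CPM in sgVC in the lowest bin.

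Interferon-high cells overlapped other neutrophil states of the same tumours. Neutrophils with Ccl3, Ccl4 and Il1a at 1% of UMIs or more were 87.3% of sgCPT1A interferon-high and 76.7% of sgCPT1A other neutrophils, and 52.3% and 49.3% in sgVC. Within that inflammatory state 40.5% of sgCPT1A and 7.60% of sgVC cells were interferon-high, shares close to those over all neutrophils. In the state with Cxcr2, Retnlg and Lrg1 at 0.5% or more, the interferon-high share was 14.6% (34 of 233) in sgCPT1A and 5.0% (6 of 120) in sgVC. In the state with Wfdc17 at 0.5% or more and little of those 3 genes it was 26.3% (20 of 76) and 7.1% (11 of 155). In each state the sgCPT1A share was the larger; for the Cxcr2 state the intervals, 10.3 to 19.8% and 1.86 to 10.6%, overlap.

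Set tumour against tumour, interferon-high cells of both libraries had passed the same 4-gene threshold, so their interferon levels are partly set by the rule. Of 1513 measured genes 305 were called higher in sgCPT1A (20.2%) and 348 lower (23%), with a median gene of −0.09. Of 38 measured type I genes 6 were higher and 2 lower, with a median of −0.05. In the other neutrophils, where 13.4% of 8328 genes were called higher and 44.5% lower and the median gene was −0.46, 17 of 50 type I genes were higher and 8 lower, with a median of 0.36. Depth and Rn18s-rs5, from ribosomal RNA, moved with this comparison. Interferon-high cells had medians of 2786.5 UMIs in sgCPT1A and 1499 in sgVC, and Rn18s-rs5 stood at 25137 and 13382 CPM. The mitochondrial mt-Rnr2 went the other way, at 12283 and 14656.5 CPM, and Malat1 was closer, at 23297 and 21927 CPM. The part of depth and RNA quality in these differences was not tested.

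Most NF-kB targets were higher in sgCPT1A than in sgVC interferon-high cells. Of 18 targets 13 were higher and none lower (median 1.06), beside 20.2% higher and 23% lower of all measured genes. In the other neutrophils 12 were higher and 0 lower (median 0.92), beside 13.4% and 44.5%. Relative to the median gene the list's medians were 1.15 in interferon-high cells and 1.37 in the other neutrophils. Il1a, which encodes interleukin-1 alpha, stood at 4121 CPM (4065 to 4177) in sgCPT1A and 1734 CPM (1553 to 1931) in sgVC interferon-high cells, a log2 ratio of 1.25. Traf1, a receptor-associated signalling adaptor, stood at 744 and 282 CPM, and Tnip1, a restraint on NF-kB, at 293 and 115 CPM. Il1b was level, at 20473 and 21279.6 CPM. Ccl3 stood at 19654 and 10389 CPM, a log2 ratio of 0.92.

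Lcn2, Cybb and Gbp5 were also higher in sgCPT1A interferon-high cells, on 38 or more UMIs in sgVC. They were higher in sgCPT1A in the other neutrophils too. Lcn2 stood at 6969.7 CPM (6897 to 7042) in sgCPT1A and 1609 CPM (1434 to 1799) in sgVC interferon-high cells, and at 5675 and 1828 CPM in the other neutrophils. Cybb, the catalytic subunit of the phagocyte oxidase, stood at 411 and 198 CPM in interferon-high cells. Gbp5, a guanylate-binding protein tied to the inflammasome, stood at 893 and 418 CPM, a log2 ratio of 1.1. The 12 highest ratios, led by Thbs1, Cdc37 and Hal, each rested on 6 or fewer sgVC UMIs and are not read further. Ikbke, a kinase related to Tbk1, likewise rested on 6 sgVC UMIs, at 141 and 31.3 CPM.

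Glycolysis and hypoxia genes were lower in sgCPT1A interferon-high cells. Of 18 measured glycolysis genes 13 were lower and 2 higher (median −0.80), and of 10 hypoxia genes 6 were lower and none higher (median −0.72). Among all measured genes of this comparison 23% were lower and 20.2% higher. Gapdh stood at 851 CPM (826 to 877) in sgCPT1A and 2168 CPM (1964 to 2387) in sgVC, and Gpi1, which isomerises glucose 6-phosphate, at 59.7 and 308 CPM. Bnip3, a mitophagy receptor induced by low oxygen, stood at 147 and 418 CPM. The same lists had medians of −0.60 and −0.90 in the other neutrophils, where 11 of 19 and 9 of 14 were lower beside 44.5% of all measured genes. Relative to the median gene the 2 lists stood at −0.72 and −0.63 in interferon-high cells and −0.14 and −0.44 in the other neutrophils. Between interferon-high and other neutrophils of 1 library, 1 glycolysis gene of 19 was lower in sgCPT1A and none of 18 in sgVC. Of all measured genes 45.2% and 31.9% were lower there.

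Retnlg, Wfdc17 and Ifitm1 were among the 12 genes lowest in sgCPT1A relative to sgVC interferon-high cells. Retnlg stood at 63.4 CPM in sgCPT1A and 653 CPM in sgVC interferon-high cells, a log2 ratio of −3.36 (−3.67 to −3.05). Wfdc17, a secreted protease-inhibitor-like protein, stood at 819 and 3494 CPM, a log2 ratio of −2.09. Ifitm1, an interferon-induced membrane protein, stood at 864 and 3886 CPM, a log2 ratio of −2.17, while its relative Ifitm3 was under 1.5-fold, at 3929 and 4403 CPM. Retnlg, Wfdc17 and Ifitm1 were lower in sgCPT1A in the other neutrophils too, with log2 ratios of −3.25, −1.62 and −1.80.

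The 4-gene share was high in few cells outside the neutrophils. At least 1% was reached by 1.12% of macrophages with C1q genes in sgCPT1A (1 of 89) and 0.606% in sgVC (4 of 660), by 3 of 447 and 3 of 814 T cells, and by 0 of 502 and 0 of 399 fibroblasts and 0 of 34 and 0 of 4311 tumour cells. A count of 0 allows up to 0.598 and 0.752% of fibroblasts and 8.82 and 0.0696% of tumour cells. The 4 genes summed to 18657 and 16135 CPM in interferon-high cells, 4332 and 2099 CPM in other neutrophils, 1643 and 1303 CPM in macrophages, 730.5 and 527 CPM in T cells, 329 and 478 CPM in fibroblasts and 381 and 139 CPM in tumour cells, sgCPT1A before sgVC. Fibroblasts were the type whose 4-gene level was lower in sgCPT1A; these gates are coarse marker thresholds, and the levels include free RNA.

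**Figure D5:**
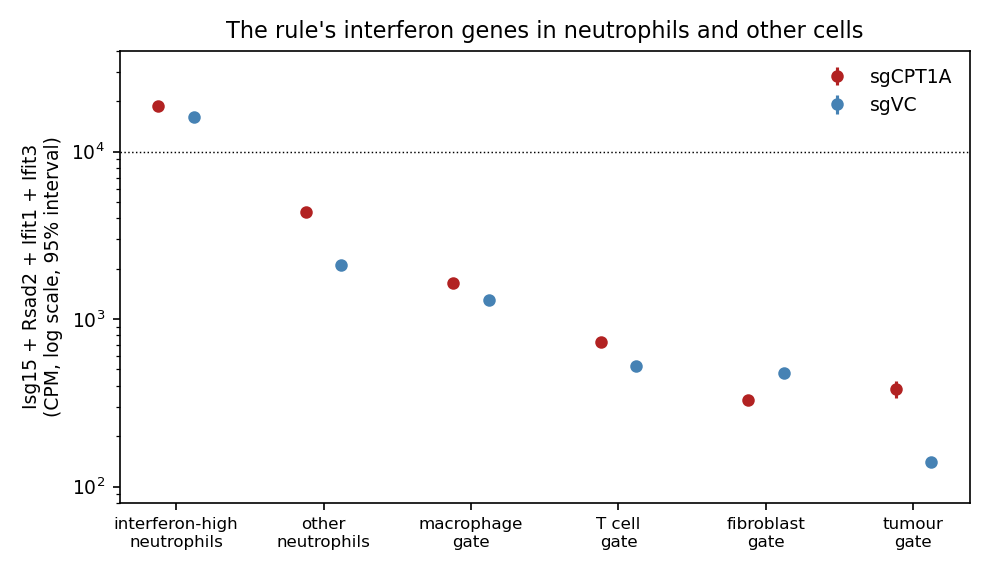
Summed CPM (log axis) of Isg15, Rsad2, Ifit1 and Ifit3 in interferon-high neutrophils, other neutrophils and 4 other cell gates of sgCPT1A (red) and sgVC (blue), with 95% counting intervals; the dotted line is 1% of UMIs. Interferon-high cells stand above the line at 18657 CPM in sgCPT1A and 16135 CPM in sgVC, and the other groups lie below it.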

How the data were processed

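Whole dissociated tumours were measured by 10x Genomics 3′ sequencing. The authors deposited unnormalized UMI counts, by gene and barcode, of 2 libraries. The software was Cell Ranger 7.1.0, per the file headers; the build GRCm38 and the package Seurat 4.1.0 are named in the submitters' processing notes. How cells were called, and which gene annotation was used, is not given in the sources used here. The additional sgCPT1A sample had no file here and was not analysed separately.

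UMIs were summed over barcodes of a subset and library and given as CPM, with exact Poisson intervals; log2 ratios have exact conditional binomial intervals and shares exact Clopper-Pearson ones, all 95% and covering counting error alone. A side at 0 was set to 3 counts. With 1 library a group no test was made. Thinning drew UMIs without replacement (seed 1). Symbols with several identifiers, 79 of 54456, were summed; 52081 of 55357 identifiers matched GENCODE M21. Python 3.11.15, numpy 2.4.6, scipy 1.17.1, pandas 2.3.3 and matplotlib 3.10.9 were used, and the ratios were tested on simulated data. No doublet caller was run; mixed barcodes were left out as an alternative.

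The members, lists and thresholds were chosen with earlier results of these data known. Named were the rule's genes, the 12 highest and 12 lowest ratios per comparison with at least 50 CPM on the higher side (mitochondrial, ribosomal, predicted, haemoglobin, sex-linked and receptor segment genes left out), up to 4 members per list, and all members of the interferon signalling, ligand, CXCR3, cGAS-STING, recruitment and oxidase lists; Mx1, Bst2, Ly6g, Cpt1a and Rn18s-rs5 were named after their values were seen. Not every gene that met the rule is described, and some are not reported here. The lists hold 36 sets, and 7 listed genes are not in the files. Other cells were gated, after neutrophils, by C1qa, C1qb and C1qc at 0.1% or more, then Cd3d, Cd3e, Cd3g and Trac at 0.1%, then Col1a1, Col1a2, Col3a1 and Dcn at 1%, then Krt8, Krt18 and Wfdc2 at 0.1%.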

Additional observations from a re-analysis of the deposited data

How the results depend on the processing

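No paired analysis was possible because each group had 1 library. The log2 ratio of interferon-high shares was positive under every alternative run, and moved to 1.46 with a threshold of 0.5% and 2.85 with 2%. Genes higher in both libraries, 85, numbered 141 (0.5%), 24 (2%), 218 (scaled to the median gene), 2130 (no count minimum) and 39 (2-fold). Genes lower in both, 416, numbered 187 (neutrophil markers at 2%), 1245 (0.5%), 123 (2%), 115 (1000 to 4000 UMIs), 91 (thinned), 215 (barcodes weighted equally), 218 (scaled), 1603 (no minimum) and 231 (2-fold). Genes higher in sgCPT1A than sgVC interferon-high cells, 305, numbered 486, 105, 883 and 153, and lower ones, 348, numbered 896, 78, 11601 and 143, at 0.5%, 2%, no minimum and 2-fold. The type I median in sgCPT1A became 1.3 (0.5%), 1.34 (1000 to 4000 UMIs) and 1.67 (scaled). A higher minimum or fold leaves fewer genes by construction; otherwise the cause was not tested. Of 193 named gene ratios past 1.5-fold, 186 kept their sign and 118 stayed past it in every alternative that measured them, which was all 11 for 112 ratios and 5 or more for the others. Reversed within sgCPT1A were Fn1, to 0.15 (markers at 2%) and 0.34 (1000 to 4000 UMIs), Ccl2, to 1.01, 0.68, 0.52 (thinned), 0.82 (mixed barcodes left out) and 0.25 (equal weight), Col3a1, to 0.046 (1000 to 4000 UMIs) and 0.00178 (mixed left out), and Cxcl5, to 0.17 (1000 to 4000 UMIs), and within sgVC Cxcl5, to 0.61 (equal weight), Plau, to 0.21 (0.5%), and Ccl5, to 0.026 (Isg15 left out, 0.5%). The 191451 UMIs of sgVC interferon-high cells limit what can be measured there, and with 1 library a group no spread between tumours is known.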

Other observations

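Genes could also pass 1.5-fold in opposite directions in the libraries when interferon-high were set against other neutrophils, and 4 did, chosen after their values were seen. B4galt3 stood at 45.6 against 68.6 CPM in sgCPT1A and 120.1 against 62.7 CPM in sgVC, Rgs1 at 19.4 against 29.6 and 99.2 against 65.5 CPM, and Tlr1 at 27.4 against 43.4 and 83.6 against 51.2 CPM. Psma5 stood at 43.6 against 28.8 CPM in sgCPT1A and 67.9 against 109.6 CPM in sgVC. With barcodes of 1000 to 4000 UMIs alone none of the 4 was called in opposite directions: in sgVC the log2 ratios were 0.51 for B4galt3 and 0.45 for Tlr1, under 1.5-fold, and Rgs1 and Psma5 were under the count minimum. Psma5 stood there at 71.0 against 52.2 CPM in sgVC, the other direction from that over all barcodes. The sgVC interferon-high values over all barcodes rest on 23, 19, 16 and 13 UMIs for B4galt3, Rgs1, Tlr1 and Psma5, and the difference between the libraries was not tested.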
